A study of Mus musculus with 13 samples.

Results

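Integrins are the main receptors by which cells hold on to the extracellular matrix. Each is made of an alpha and a beta subunit, and the alpha subunit largely decides whether the receptor binds laminin, collagen or proteins with the Arg-Gly-Asp motif (RGD), such as fibronectin and vitronectin. Talins and kindlins bind the beta tail inside the cell and switch the receptor on, after which focal adhesion kinases and scaffold proteins carry the signal. The genes described here are 10 integrin subunit genes, 7 alpha (Itga1, Itga3, Itga4, Itga5, Itga6, Itga7 and Itgav) and 3 beta (Itgb1, Itgb3 and Itgb5), of the 34857 Ensembl genes measured. They were picked by name, by matching Ensembl identifiers to GRCm38 gene symbols, and all 10 were found. Earlier results of these data were known when they were chosen. The other 17 integrin subunit genes were looked up as well.

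The cells were Neuro2a, a mouse neuroblastoma line, and poly(A) RNA was sequenced in 13 libraries. In the experimental groups, vials of cells in 10% DMSO stood in a dewar whose liquid nitrogen ran dry over 10 h, and a further 24 h passed while its temperature settled at 4 °C; a second freezing lasted 72 h at -80 °C, and thawing at 37 °C preceded plating. In the control groups, vials with the same 10% DMSO stayed in normal cryostorage until they were thawed and plated in the same way. There were 4 experimental and 3 control libraries at passage 1, the early stage of recovery, and 3 experimental and 3 control libraries at passage 6. All groups come from this single cell line, and the labels leave unsaid whether the libraries within a group had their own vial, culture or RNA preparation.

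Values are FPKM, which count fragments per transcript length and per library size, in 1 deposited table per passage. Sequencing depth is unknown, so precision was read from the spread between libraries. A gene was tested with limma on log2(FPKM + 1) within a passage if it had at least 1 FPKM in at least 3 libraries, and it was called higher or lower where the p-value adjusted over all genes tested was below 0.05. Fitted folds include the added 1 FPKM and are smaller than the ratio of mean FPKM for low genes. Levels at passage 1 and passage 6 come from separate tables, and the step between them was not tested.

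The libraries carried the transcripts of a neuroblastoma line: 14 of 15 marker genes reached 1 FPKM in some library, with a summed level of 867 to 1279 FPKM. The sum was 867 to 904 FPKM in experimental and 937 to 973 FPKM in control libraries at passage 1. At passage 6 the order was opposite, at 1178 to 1279 FPKM in experimental and 1083 to 1132 FPKM in control libraries. Transcripts of other tissues differed between libraries. Of 20 colon epithelium markers all reached 1 FPKM, and their sum was 6.92 to 181 FPKM in experimental and 193 to 430 FPKM in control libraries at passage 1, and 7.18 to 102 FPKM in experimental and 107 to 230 FPKM in control libraries at passage 6. The sum of 11 liver markers was 222 and 178 FPKM in experimental libraries 2 and 3 of passage 6 and at most 1.96 FPKM in every other library, and the sum of 8 fibroblast markers was 142 and 127 FPKM in the same 2 libraries and at most 14.7 FPKM elsewhere. Cartilage markers (12 of 13 reached 1 FPKM) summed to 16.7 FPKM in experimental library 4 and 12.9 FPKM in control library 1 of passage 1, while experimental libraries 1 to 3 and control libraries 2 and 3, named below as the 5 libraries with cartilage transcripts, held 39.2 to 57.0 FPKM. Smooth muscle markers (4 of 6 reached 1 FPKM) summed to 201 to 231 FPKM in experimental and 14.2 to 19.5 FPKM in control libraries at passage 1, and to 88.6 to 102.5 FPKM in experimental and 11.1 to 14.3 FPKM in control libraries at passage 6. In experimental libraries nearly all of that sum was the actin gene Acta2, and the defining gene Myh11 stayed at or below 0.39 FPKM. The neuroblastoma, colon and smooth muscle sums separate all experimental from all control libraries at both passages, so their part cannot be told apart from the groups. The cartilage sum did so at passage 6, at 22.3 to 26.7 FPKM in experimental and 40.3 to 64.5 FPKM in control libraries. Brain and myelin markers, 10 in all, did so at passage 1. Their sum was 26.55 to 29.7 FPKM in experimental and 34.4 to 35.9 FPKM in control libraries. At those passages their part cannot be told apart from the groups either. For the other tissues, and for these sums at the other passage, the part in the integrin results was not tested. Fits restricted to the 5 libraries with cartilage transcripts at passage 1 (976 of 12172 genes called) and fits without experimental libraries 2 and 3 of passage 6 (2460 of 12144 genes called) are given below. The second of these leaves experimental library 1 as the lone experimental library, which is assumed to vary like the control libraries, so its calls rest on 1 sample.

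Of the 9 members that passed the filter at passage 1, 4 were called higher in experimental cells (Itga3, Itga5, Itgav and Itgb1) and 1 lower (Itga1). In bulk RNA a smaller share of cells with a transcript and less transcript per cell cannot be told apart. Among all 12469 genes tested, 30.4% were called, 11.5% being higher and 18.9% lower. Of the 9 members that passed at passage 6, 3 were called higher (Itga3, Itga5 and Itgb1) and 2 lower (Itga1 and Itga7), where 19.8% of 12458 genes were called, 8.98% higher and 10.8% lower. Itga3, Itga5 and Itgb1 were thus higher at both passages, and Itga1 lower at both. The groups did not overlap for 5 of the 9 members at passage 1, where this held for 42.6% of all genes tested (15.8% with experimental libraries higher, 26.9% with them lower), and for 7 of the 9 at passage 6, where it held for 41.7% (17.4% higher, 24.3% lower). The median log2 change of the 9 members was 0.13 at either passage, beside -0.05 for all genes at passage 1 and -0.04 at passage 6. Since the members were chosen with earlier results of these data known, these comparisons with all genes only describe. Median-of-ratios scaling left the member calls at passage 1 as they were, while among all genes the share of calls that were higher was 55.5% with it and 37.8% without it at passage 1, and 57.5% with it and 45.5% without it at passage 6.

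**Figure D1:**
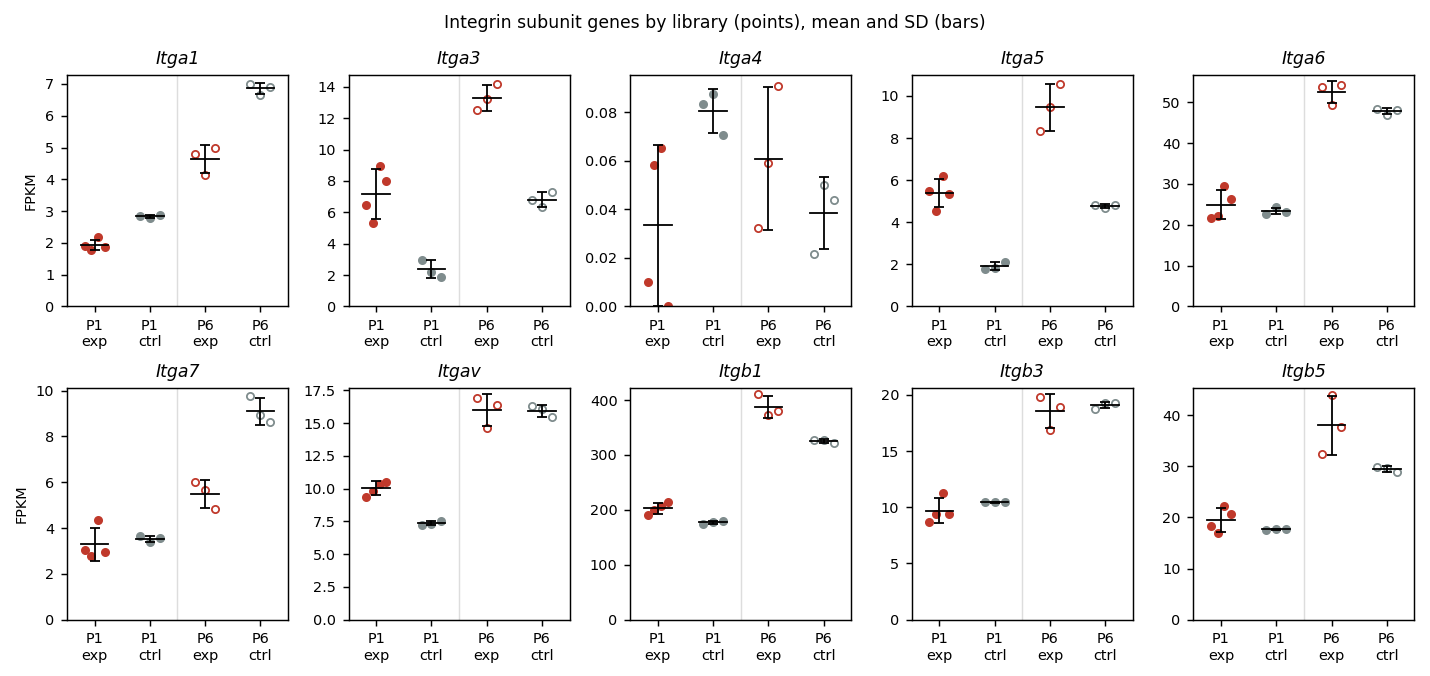
FPKM of the 10 integrin subunit genes in each library (points), with the group mean and SD (bars), at passage 1 (filled points) and passage 6 (open points), each panel with its own linear axis. Experimental libraries (red) lie above control libraries (grey) for Itga3, Itga5 and Itgb1 and below them for Itga1 at both passages; the step between passages is between separately deposited tables.

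The laminin-binding alpha subunits did not move together. Itga3, which pairs with the Itgb1 product in a receptor for the laminins of basement membranes, had 6.46, 5.30, 8.92 and 7.97 FPKM in the experimental libraries of passage 1, against 2.99, 2.21 and 1.87 FPKM in the control libraries. Every experimental library was above every control library, and control 1, the highest control, was still well below. The log2 change was 1.28 ± 0.17 (SE), a 2.42-fold rise (limma, adjusted p = 0.0016), the 33rd highest of all genes tested. At passage 6 Itga3 had 12.5, 13.2 and 14.2 FPKM in experimental and 6.79, 6.32 and 7.31 FPKM in control libraries. The groups were again apart, and experimental library 1, whose liver marker sum was 1.19 FPKM and fibroblast marker sum 5.47 FPKM, was also above every control. The fitted rise was 1.83-fold, a log2 change of 0.87 ± 0.07 (SE, adjusted p = 0.0014).

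Itga6, the main laminin-binding alpha subunit by level, pairs with the products of Itgb1 or Itgb4 and lies at chr2:71745616-71858416 on the plus strand. It had 21.8, 22.2, 29.4 and 26.4 FPKM in experimental and 22.7, 24.2 and 23.1 FPKM in control libraries at passage 1. Experimental libraries lay on both sides of the controls, and no change was called (log2 change 0.08 ± 0.10 (SE), adjusted p = 0.58). At passage 6 it had 53.8, 49.4 and 54.2 FPKM in experimental and 48.4, 47.0 and 48.1 FPKM in control libraries. These groups did not overlap, but the log2 change of 0.13, with a 95% confidence interval of 0.01 to 0.25, did not pass (adjusted p = 0.12). It passed without experimental library 2 (adjusted p = 0.0455) and, with experimental library 1 alone in its group, the log2 change was 0.17 (adjusted p = 0.0337).

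Itga7 encodes a laminin-binding subunit best known from skeletal and cardiac muscle (chr10:128933818-128958282, plus strand). At passage 1 it had 3.04, 2.78, 4.37 and 2.94 FPKM in experimental and 3.65, 3.39 and 3.56 FPKM in control libraries. Experimental library 3 was above all controls and the other 3 experimental libraries were below them. The log2 change was -0.09 ± 0.12 (SE, adjusted p = 0.57), and without experimental library 3 it was -0.21 (adjusted p = 0.0336). That library gave the highest of the 4 experimental values for 7 of the 9 tested members, and its colon marker sum was the lowest of passage 1, at 6.92 FPKM. At passage 6 Itga7 fell to 5.99, 5.66 and 4.83 FPKM in experimental libraries, against 9.76, 8.92 and 8.61 FPKM in control libraries. Here all experimental libraries were below all controls, and the log2 change was -0.64 ± 0.08 (SE, adjusted p = 0.0044), the 239th lowest of the genes tested. Exons of Itga7 share 9 bases with Mettl7b on the opposite strand, and the sources used here do not state whether counting used strand.

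Among the RGD-binding alpha subunits, Itga5, whose product with that of Itgb1 is the classical fibronectin receptor, changed most. It had 5.50, 4.54, 6.20 and 5.35 FPKM in experimental libraries and 1.79, 1.84 and 2.11 FPKM in control libraries at passage 1. The lowest experimental library was above the highest control by more than the spread of either group. The log2 change was 1.13 ± 0.09 (SE), a 2.19-fold rise (adjusted p = 0.00019), the 51st highest of all genes tested. At passage 6 Itga5 had 8.32, 9.49 and 10.6 FPKM in experimental and 4.83, 4.67 and 4.80 FPKM in control libraries. The control libraries lay close together and the experimental ones were all above them, with experimental library 1 the lowest of the 3. The rise was 1.81-fold (log2 change 0.85 ± 0.08 (SE), adjusted p = 0.0021).

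Itgav (chr2:83724397-83806916, plus strand), the alpha subunit gene shared by the vitronectin receptors, followed another course. At passage 1 it had 9.37, 9.82, 10.4 and 10.5 FPKM in experimental and 7.25, 7.29 and 7.57 FPKM in control libraries. The groups were apart and the rise was 1.32-fold (log2 change 0.40 ± 0.05 (SE), adjusted p = 0.0017). The passage 6 values were 16.9, 14.6 and 16.4 FPKM in experimental and 16.3, 16.1 and 15.5 FPKM in control libraries. The groups overlapped, with a log2 change of 0.00 and a 95% confidence interval of -0.15 to 0.15 (adjusted p = 0.997).

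Itga1 encodes a collagen-binding subunit, with a preference for the basement membrane collagen IV. It fell to 1.90, 1.78, 2.17 and 1.88 FPKM in experimental libraries of passage 1, against 2.85, 2.77 and 2.88 FPKM in control libraries. No library crossed over, and the log2 change was -0.39 ± 0.07 (SE, adjusted p = 0.0045). It did not pass among the 5 passage 1 libraries with cartilage transcripts (log2 change -0.37, adjusted p = 0.0656). At passage 6 it fell to 4.80, 4.13 and 4.97 FPKM in experimental libraries, against 7.01, 6.67 and 6.90 FPKM in control libraries. The groups were again apart (log2 change -0.48 ± 0.07 (SE), adjusted p = 0.0064). Its exons share 685 bases with the predicted gene Gm49395 on the same strand, listed at 0.12 to 1.71 FPKM, so reads could have been split between them. The sum of both genes was 1.94 to 2.29 FPKM in experimental and 3.03 to 3.32 FPKM in control libraries at passage 1, and 4.43 to 5.18 FPKM in experimental and 6.98 to 8.61 FPKM in control libraries at passage 6. The groups were apart in the sum, but each FPKM is per its own gene's length, so the sum does not restore split reads. Whether reads were split was not tested.

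Itga4 (chr2:79255426-79333123, plus strand), the gene of a subunit best known from leukocytes, was at or below 0.091 FPKM in all 13 libraries and was listed at 0 in experimental library 4 of passage 1. It failed the filter at both passages and was not tested.

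The promoters of the 2 alpha genes with the largest rise and of Itga1, which fell, are shown because these genes moved in the same direction at both passages. They are RefSeq sequences of build GRCm38.p6, written 5′ to 3′ on the gene's own strand, with capitals on the GC box GGGCGG or its reverse complement, which Sp family factors can bind. Itga3 lies at chr11:95044474-95076801, Itga5 at chr15:103344286-103366763 and Itga1 at chr13:114953096-115101964, all on the minus strand. The shown stretches are chr11:95076802-95076964 for Itga3, which leaves out bases that the GENCODE gene model transcribes, chr15:103366792-103367041 for Itga5 and chr13:115101965-115102214 for Itga1.
Itga3: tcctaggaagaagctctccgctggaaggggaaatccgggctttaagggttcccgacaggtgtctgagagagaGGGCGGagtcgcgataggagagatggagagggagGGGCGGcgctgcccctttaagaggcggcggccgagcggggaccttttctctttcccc
Itga5: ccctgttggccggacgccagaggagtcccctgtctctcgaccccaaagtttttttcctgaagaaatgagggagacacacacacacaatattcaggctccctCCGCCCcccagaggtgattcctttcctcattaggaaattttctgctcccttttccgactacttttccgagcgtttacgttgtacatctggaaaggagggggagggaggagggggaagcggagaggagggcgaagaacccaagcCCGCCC
Itga1: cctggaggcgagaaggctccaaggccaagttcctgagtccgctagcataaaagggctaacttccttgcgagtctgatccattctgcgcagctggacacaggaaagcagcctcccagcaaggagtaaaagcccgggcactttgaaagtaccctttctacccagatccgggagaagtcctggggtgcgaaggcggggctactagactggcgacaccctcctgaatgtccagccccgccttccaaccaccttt
Of the 10 members, 7 had a RefSeq promoter entry, with 8 windows in all since Itga3 has 2 start sites. In the 250 bases before each start site, on both strands, the GC box occurred 3 times and 1 time in the windows of Itga3, 2 times in that of Itga5, 3 times in that of Itgb5, 1 time each in those of Itgb1 and Itga4, and not in those of Itgav and Itga1. The same motif lies in 32.7% of 32851 RefSeq windows. The AP-1 motif TGANTCA, present in 6.75% of all windows, the EGR motif GCGNGGGCG, present in 4.7%, and the CArG box of serum response factor, present in 1.47%, were in none of the 8. These are matches of letters in a short window and describe nothing about binding.

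Among the beta subunits, Itgb1 was by far the most abundant integrin gene and rose slightly. Its product is the partner of most alpha subunits, and the gene lies at chr8:128685654-128733200 on the plus strand. At passage 1 it had 191, 199, 206 and 214 FPKM in experimental libraries, against 175, 178 and 180.1 FPKM in control libraries. The groups did not overlap, and the rise was 1.14-fold (log2 change 0.19 ± 0.05 (SE), adjusted p = 0.0219). In the passage 6 table it had 410.4, 373 and 379.9 FPKM in experimental and 328, 327 and 321 FPKM in control libraries. Again all experimental libraries were higher, by 1.19-fold (log2 change 0.25 ± 0.05 (SE), adjusted p = 0.0189). The call rests on having all controls: without control 1, 2 or 3 the adjusted p was 0.0917, 0.0781 or 0.069 at passage 1 and 0.078, 0.0817 or 0.0909 at passage 6. Among the 5 passage 1 libraries with cartilage transcripts it was 0.178.

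Itgb3 and Itgb5 encode the beta subunits of the vitronectin receptors and lie on the plus strand at chr11:104608000-104670476 (Itgb3) and chr16:33829665-33949338 (Itgb5). Itgb3 had 8.73, 9.37, 11.3 and 9.42 FPKM in experimental and 10.4, 10.4 and 10.5 FPKM in control libraries at passage 1, and 19.8, 16.9 and 19.0 FPKM in experimental and 18.8, 19.3 and 19.2 FPKM in control libraries at passage 6. Both comparisons overlapped, since experimental library 3 of passage 1 and experimental library 1 of passage 6 were above all of their controls. Neither passed (log2 change -0.11, adjusted p = 0.34 at passage 1; log2 change -0.04, adjusted p = 0.66 at passage 6), but without experimental library 3 of passage 1 the log2 change there was -0.17 (adjusted p = 0.0295). Itgb5 had 18.3, 16.9, 22.2 and 20.6 FPKM in experimental and 17.5, 17.7 and 17.8 FPKM in control libraries at passage 1. These overlapped, and no change was called (log2 change 0.13 ± 0.09 (SE), adjusted p = 0.29). At passage 6 it had 32.4, 44.0 and 37.6 FPKM in experimental and 29.9, 29.6 and 28.9 FPKM in control libraries. All experimental libraries were above the controls, and the 2 highest were libraries 2 and 3, whose fibroblast marker sums were 142 and 127 FPKM, beside 5.47 FPKM in library 1. The log2 change of 0.35 ± 0.10 (SE) missed the threshold (adjusted p = 0.0524). The log2 change was 0.45 without experimental library 1 (adjusted p = 0.00345), 0.24 without experimental library 2 (adjusted p = 0.0776) and 0.13 with experimental library 1 alone in its group (adjusted p = 0.0735). Median-of-ratios scaling brought it past the threshold (adjusted p = 0.0422). The part of the fibroblast transcripts in this value was not tested.

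**Figure D2:**
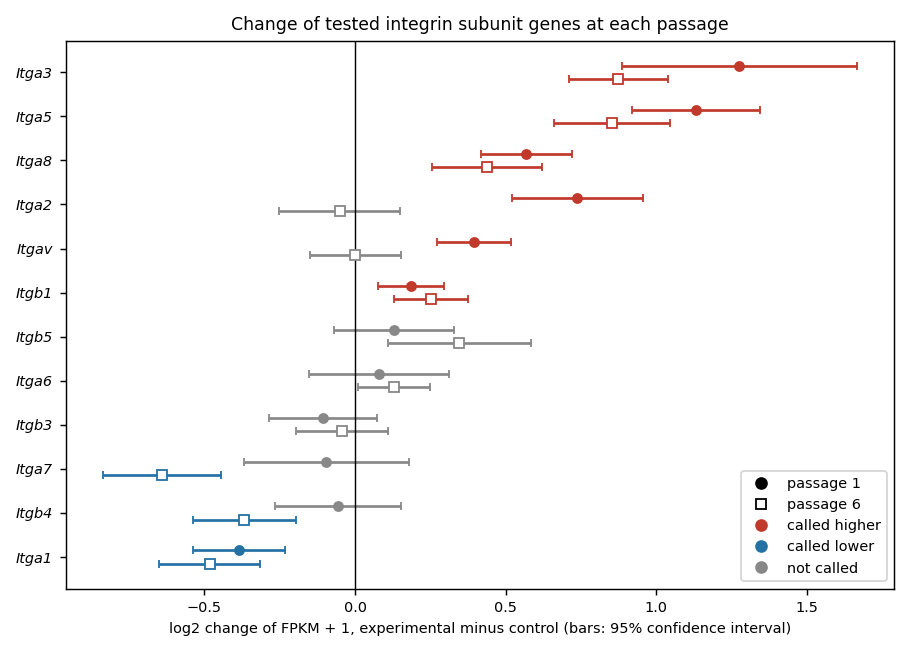
Fitted log2 change of FPKM + 1, experimental minus control, with its 95% confidence interval, for the 9 tested members and for Itga2, Itga8 and Itgb4, at passage 1 (circles) and passage 6 (open squares); red marks a gene called higher and blue a gene called lower. Itga3 and Itga5 lie furthest to the right at both passages, Itgav and Itga2 are to the right at passage 1 only and near 0 at passage 6, and Itga7 is to the left at passage 6.

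Of the other 17 integrin subunit genes, 3 passed the filter at each passage. Itga2, a second collagen-binding subunit gene, had 1.73, 1.49, 2.15 and 1.72 FPKM in experimental and 0.721, 0.588 and 0.664 FPKM in control libraries at passage 1. It was higher in each experimental library, by a fitted 1.67-fold (limma, adjusted p = 0.0014) and by 2.70-fold in mean FPKM. Every control library was below 1 FPKM, so Itga2 passed the filter at passage 1 only through the experimental libraries. That p-value therefore only describes. At passage 6 it had 2.12 to 2.68 FPKM in experimental and 2.40 to 2.72 FPKM in control libraries, which overlapped (adjusted p = 0.70). Itga8, an RGD-binding subunit gene, had 2.63 to 2.72 FPKM in experimental and 1.31 to 1.59 FPKM in control libraries at passage 1, a 1.48-fold rise (adjusted p = 0.00089). It had 3.88 to 4.82 FPKM in experimental and 2.86 to 3.00 FPKM in control libraries at passage 6, a 1.35-fold rise (adjusted p = 0.0117) that missed the threshold without any single control (adjusted p = 0.0509 to 0.0544). Itgb4, the laminin-binding beta subunit gene of hemidesmosomes, had 1.48 to 1.94 FPKM in experimental and 1.53 to 2.02 FPKM in control libraries at passage 1 (adjusted p = 0.67). At passage 6 it fell to 2.99 to 3.05 FPKM in experimental libraries, against 3.81 to 4.61 FPKM in control libraries (log2 change -0.37 ± 0.07 (SE), adjusted p = 0.0159), a call lost without control 2 (adjusted p = 0.0683) and without control 3 (adjusted p = 0.0652). With experimental library 1 alone in its group the log2 change was -0.38 (adjusted p = 0.0599). The remaining 14 genes, among them the leukocyte and platelet subunits, failed the filter at both passages, and their highest value in any library was 1.09 FPKM. The pan-leukocyte gene Ptprc was at or below 0.0957 FPKM in every library.

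A test of whether the change differed between the passages was made as a contrast over all 13 libraries, and 14.7% of 13019 genes were called in it, 8.46% with a higher and 6.27% with a lower change at passage 6. Of the 9 members, 2 were called, both with a lower change. The change of Itgav was lower at passage 6 than at passage 1 by 0.40 on the log2 scale (difference -0.40 ± 0.08 (SE), adjusted p = 0.0085). The change of Itga7 was also lower at passage 6 (difference -0.55 ± 0.16 (SE), adjusted p = 0.0369), but this call was lost without any of the 6 control libraries (adjusted p = 0.0582 to 0.0907), without experimental library 2 or 3 of passage 6 (adjusted p = 0.0605 and 0.0772) and without both of these, with 1 experimental library left at passage 6 (difference -0.43, adjusted p = 0.18). Itga2 differed as well (difference -0.79 ± 0.13 (SE), adjusted p = 0.0025). For Itga3 the difference was -0.40, with a 95% confidence interval of -0.85 to 0.05 (adjusted p = 0.21), and for Itga5 it was -0.28, with an interval of -0.56 to 0.00 (adjusted p = 0.17), so a smaller rise at passage 6 was not shown for either. The intervals for Itga1 (-0.30 to 0.10) and Itgb1 (-0.09 to 0.22) included 0.

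Because FPKM are given per length, levels of subunits can be ordered within a library. Itgb1 stood first, then Itga6 and then Itgb5 in all 4 groups, although the ranges of Itga6 and Itgb5 overlapped in experimental cells at passage 1. In control cells Itga7 and Itga1 came before Itga3 and Itga5 at both passages, with Itga1 and Itga3 overlapping in range. In experimental cells Itga3 and Itga5 came before Itga7 and Itga1 at both passages, and the range of Itga5 did not overlap that of Itga7.

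The same shift shows in the make-up of the alpha subunits, where a ratio within a library does not depend on how libraries were scaled. The 7 alpha genes summed to 46.5 to 61.5 FPKM in experimental and 41.2 to 41.8 FPKM in control libraries at passage 1, and to 96.6 to 105.2 FPKM in experimental and 89.7 to 93.2 FPKM in control libraries at passage 6. Itga3 made up 11.4 to 14.5% of that sum in experimental and 4.53 to 7.23% in control libraries at passage 1, and 12.2 to 13.7% in experimental and 7.04 to 8.02% in control libraries at passage 6. Itga5 made up 9.73 to 11.5% in experimental and 4.33 to 5.13% in control libraries at passage 1, and 8.13 to 10.0% in experimental and 5.19 to 5.27% in control libraries at passage 6. Both shares were thus higher in every experimental library than in any control library of the same passage. The share of Itga6 was 45.3 to 47.9% in experimental and 55.0 to 57.9% in control libraries at passage 1, and 51.2 to 52.6% in experimental and 52.0 to 52.7% in control libraries at passage 6, where the groups overlapped. Itga3 per Itga6 was 0.239 to 0.303 in experimental and 0.0806 to 0.132 in control libraries at passage 1, and 0.233 to 0.268 in experimental and 0.134 to 0.152 in control libraries at passage 6. The laminin-binding subunits Itga3, Itga6 and Itga7 taken as a sum made up 65.1 to 69.4% in experimental and 69.3 to 71.3% in control libraries at passage 1, and 69.5 to 70.7% in experimental and 69.4 to 70.2% in control libraries at passage 6. That share overlapped at both passages, at passage 1 only through experimental library 3 (69.42%) and control library 3 (69.34%). By level Itga3 and Itga7 exchanged places, though Itga7 was not called at passage 1. Itga3 per Itga7 was 1.90 to 2.71 in experimental and 0.525 to 0.819 in control libraries at passage 1, and 2.09 to 2.93 in experimental and 0.696 to 0.849 in control libraries at passage 6. The RGD-binding subunits Itga5 and Itgav made up 26.94 to 30.96% in experimental and 21.83 to 23.51% in control libraries at passage 1. At passage 6 they made up 24.65 to 25.64% in experimental and 22.22 to 23.11% in control libraries. Itgb1 made up 86.0 to 88.7% of the summed beta subunits in experimental and 86.2 to 87.1% in control libraries over both passages.

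**Figure D3:**
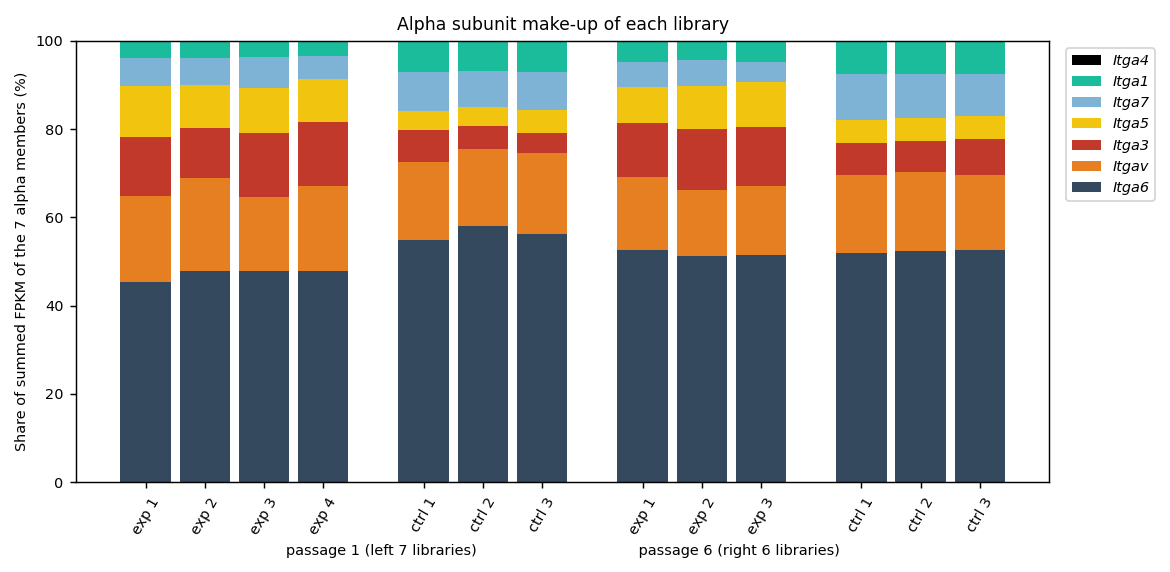
Share of each alpha gene in the summed FPKM of the 7 alpha members, in percent, for each library, with experimental libraries left of control libraries at each passage. Itga3 (red) and Itga5 (yellow) take more of the bar in every experimental library than in the controls of the same passage, Itga1 (green) takes less, and Itga4 is too low to be seen.

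The genes whose values ran closest to the 3 members with the largest called change at passage 1 were found by the root mean square (RMS) difference of log2(FPKM + 1), centred within each passage, over 13 libraries and 6745 genes. Closest to Itga3 were Trp53i11 (RMS difference 0.148), Arhgdib (0.167) and the fibroblast growth factor receptor gene Fgfr1 (0.185). Closest to Itga5 were Fgfr1 (0.087), Arhgdib (0.0989) and Tmeff2 (0.103), a transmembrane protein gene. Fgfr1 averaged 14.9 FPKM in experimental and 6.03 FPKM in control libraries at passage 1, and 22.1 FPKM in experimental and 10.9 FPKM in control libraries at passage 6. Closest to Itgav were the splicing factor gene Sf3b1 (0.0442) and the zinc finger gene Zfp281 (0.0509). Sf3b1 averaged 39.9 FPKM in experimental and 31.4 FPKM in control libraries at passage 1, and 30.7 FPKM in experimental and 30.6 FPKM in control libraries at passage 6.

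The ligands of these receptors were described from 3 lists. Counts for these and the later lists stand beside 11.5% higher and 18.9% lower among all genes tested at passage 1. At passage 6 these shares were 8.98% higher and 10.8% lower. Of 11 laminin chain genes 5 were tested at each passage, of which 4 were higher and none lower in experimental cells at passage 1, and 1 was higher and 1 lower at passage 6 (median log2 change 0.74 at passage 1 and 0.14 at passage 6). Lamb2 had 13.6, 13.8, 18 and 17.0 FPKM in experimental and 3.10, 3.74 and 4.34 FPKM in control libraries at passage 1, a 3.51-fold rise (adjusted p = 9.7e-05). Its groups were far apart there and closer at passage 6, where the rise was 1.5-fold (adjusted p = 0.0068). Lama5 rose 3.38-fold and Lamc1 1.67-fold at passage 1 (adjusted p = 9.7e-05 and 0.00073), and Lama4 fell at passage 6 (log2 change -0.60, adjusted p = 0.0032). All 5 tested laminin genes were called with a lower change at passage 6 than at passage 1 in the test of the difference. Among all 13019 genes in that test, 6.27% were called with a lower change.

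Of 14 genes for RGD or fibronectin-related ligands, 4 of 11 tested were higher and 1 lower at passage 1, and 2 of 12 were higher and 1 lower at passage 6. Among all genes tested 30.4% were called in either direction at passage 1 and 19.8% at passage 6. The fibronectin gene Fn1 had 78.4, 82.6, 121 and 94.5 FPKM in experimental and 48.1, 61.0 and 61.1 FPKM in control libraries at passage 1. Each experimental library was above each control, and the rise was 1.63-fold (adjusted p = 0.011), while at passage 6 the change did not pass (fold 1.09, adjusted p = 0.42). Ccn1, a matricellular ligand gene, rose 2.21-fold at passage 1 (adjusted p = 0.0022), and Mfge8, the gene of a secreted RGD protein that bridges to phosphatidylserine, rose 1.79-fold at passage 1 (adjusted p = 0.0023) and 1.62-fold at passage 6 (adjusted p = 0.0017). None of the 6 tested of 10 collagen genes was called at passage 1 by limma, and 0 had an unadjusted p below 0.05, though 1 was called lower among the 5 libraries with cartilage transcripts. At passage 6, 3 of 7 were lower, among them the collagen IV genes Col4a2 (log2 change -0.33, adjusted p = 0.0054) and Col4a1 (log2 change -0.28, adjusted p = 0.0112). The median of the 7 was 0.86 and thus opposite in sign to the calls, as Col1a1 had 90.8 and 82.1 FPKM in experimental libraries 2 and 3, 0.265 FPKM in experimental library 1 and 2.24 to 4.92 FPKM in control libraries. Counts for the collagen and RGD lists with experimental library 1 alone in its group rest on that 1 library and are not given.

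Inside the cell, 9 of 15 tested activator and linker genes were higher and 0 lower in experimental cells at passage 1, and 2 of 14 were higher and 0 lower at passage 6. The filamin gene Flna, which links beta tails to actin, had 125, 139, 133 and 128 FPKM in experimental and 79.95, 82.9 and 84.7 FPKM in control libraries at passage 1. It was higher in every experimental library, by 1.58-fold at passage 1 (adjusted p = 0.00011) and 1.34-fold at passage 6 (adjusted p = 0.01). The vinculin gene Vcl rose 1.73-fold (adjusted p = 0.0059) and the kindlin gene Fermt2 1.34-fold (adjusted p = 0.0055) at passage 1, and neither was called at passage 6 (adjusted p = 0.16 each). The actin crosslinker gene Actn4 rose 1.28-fold at passage 1 (adjusted p = 0.0021) and 1.26-fold at passage 6 (adjusted p = 0.024). Among the 5 passage 1 libraries with cartilage transcripts, where 976 of 12172 genes were called in all, 2 of the 15 were called, both higher, and 9 had an unadjusted p below 0.05, beside 11 in all libraries. In all libraries 5363 of the 12469 genes tested had such a p, and for the 5 libraries that number was not counted. At passage 6, 4 of the 14 were higher with median-of-ratios scaling, beside 1407 of 12458 genes.

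Of 16 tested adhesion signalling genes, 9 were higher and 2 lower at passage 1 and 3 were higher and 0 lower at passage 6. Bcar1, the gene of the docking protein p130Cas, rose 1.57-fold at passage 1 (adjusted p = 0.00017). The kinase gene Src rose 1.40-fold (adjusted p = 0.00058) and the parvin gene Parvb 1.26-fold (adjusted p = 0.004) at passage 1, and they rose 1.20-fold (adjusted p = 0.026) and 1.16-fold (adjusted p = 0.028) at passage 6. Tgfb1i1, a paxillin relative, rose 1.38-fold at passage 1 (adjusted p = 0.0029) and 1.39-fold at passage 6 (adjusted p = 0.0165). With median-of-ratios scaling 11 were higher and 0 lower at passage 1, beside 1975 higher and 1583 lower of 12469 genes. Among the 5 libraries with cartilage transcripts, where 976 of 12172 genes were called in all, 4 were higher. There 9 of 16 had an unadjusted p below 0.05, beside 13 in all libraries. In all libraries 5363 of 12469 genes had such a p, and for the 5 libraries that number was not counted. A count with experimental library 1 alone in its group at passage 6 rests on that 1 library and is not given.

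The list of integrin inhibitors and trafficking genes had 2 of 8 higher (the endocytic adaptor gene Numb and the GTPase gene Arf6) and 1 lower (Hax1) at passage 1, and 0 higher and 1 lower at passage 6 (Sharpin, whose product holds integrins inactive, log2 change -0.36, adjusted p = 0.012). Among all genes tested 11.5% were called higher and 18.9% lower at passage 1, and 8.98% higher and 10.8% lower at passage 6. Of 10 genes for membrane proteins that associate with integrins, 5 were higher and 1 lower at passage 1 and 3 were higher and 0 lower at passage 6. The tetraspanin gene Cd81 had 46.5, 39.8, 52.7 and 50.4 FPKM in experimental and 29.1, 30.0 and 28.4 FPKM in control libraries at passage 1. It rose 1.60-fold there (adjusted p = 0.0016) and 1.30-fold at passage 6 (adjusted p = 0.011). The urokinase receptor gene Plaur rose 1.28-fold (adjusted p = 0.0034) at passage 1 and 1.22-fold (adjusted p = 0.0074) at passage 6, and Bsg and Cd47 rose 1.43-fold (adjusted p = 0.027) and 1.29-fold (adjusted p = 0.003) at passage 1 without a call at passage 6. Among the 5 passage 1 libraries with cartilage transcripts, 1 of these 10 membrane protein genes and 0 of the 8 inhibitor and trafficking genes were called, with 2 of the 8 at an unadjusted p below 0.05. There 976 of 12172 genes were called in all. With all libraries of passage 1, 3 of the 8 and 5363 of 12469 genes had an unadjusted p below 0.05. With experimental library 1 alone in its group at passage 6, a count for either list rests on that 1 library and is not given.

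**Figure D4:**
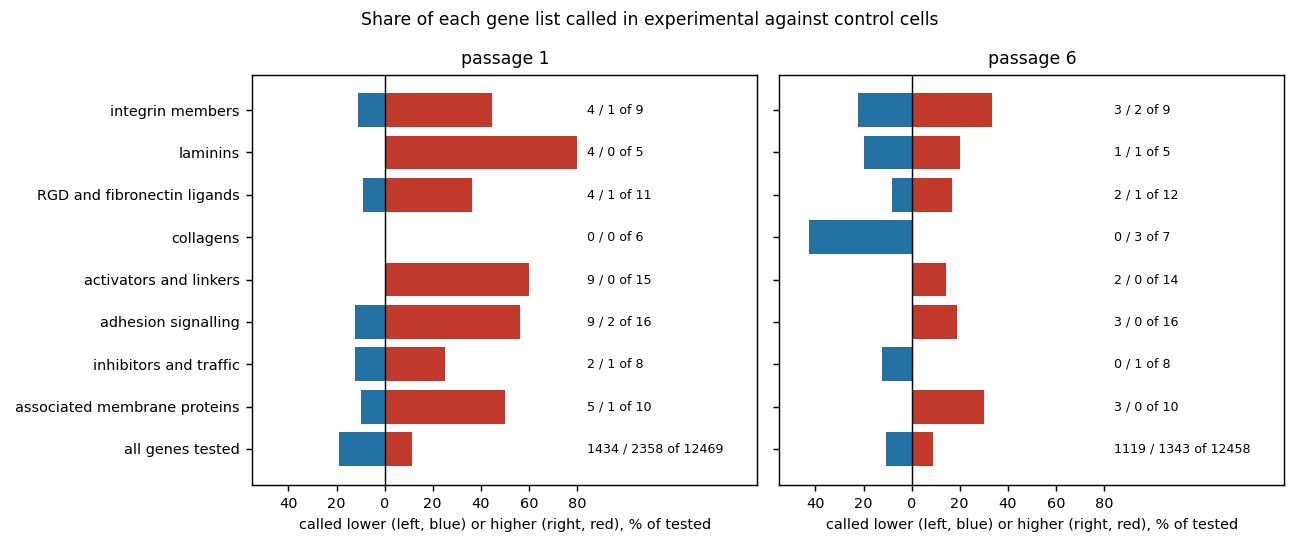
Percent of the tested genes of each list called higher (red, to the right) or lower (blue, to the left) in experimental against control cells at passage 1 and passage 6, with the counts higher / lower of tested beside each bar. The lists were chosen with earlier results of these data known. At passage 1 the activator and linker list has 9 higher and 0 lower of 15, beside 11.5% higher and 18.9% lower among all genes tested. At passage 6 it has 2 higher and 0 lower of 14, beside 8.98% higher and 10.8% lower among all genes tested. The difference between the passages in these shares was not tested. Gene by gene, the test of the difference called 1 of 15 genes of this list, with a lower change at passage 6. Among all 13019 genes in that test, 6.27% were called with a lower change.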

How the data were processed

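Per the labels, RNA with an integrity number above 7.0 was poly(A)-selected and made into dUTP stranded libraries. The authors deposited FPKM, with a table for each passage. The submitters' processing notes name mm10, HISAT2, cutadapt, StringTie, edgeR and DESeq2 with no version or order, and how libraries were scaled is not given in the sources used here. Both tables hold the same 34857 Ensembl identifiers, of which 34731 matched a GENCODE symbol (GRCm38); all 13 value columns were used and 1 gene with an empty cell was left out. For each passage limma 3.58.1 (R 4.3.3) was fitted to log2(FPKM + 1) using its trend option, two-sided, with Benjamini-Hochberg adjustment across the genes that passed the filter; a contrast over 13 libraries compared the passages. The fit was tested on simulated data. Since the origin of replicates is unsaid, p-values cover the spread between these libraries and that spread could be technical. Members, gene lists and left-out libraries were chosen with earlier results of these data known.

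Named were all members, the other subunits that passed the filter, and per list and passage up to 4 called genes of at least 5 FPKM with the largest change, or the 2 with the highest mean where none was called. Col1a1 was named after its values were seen. For likeness, the 3 nearest genes of at least 5 FPKM were taken for each of 3 members; 1 of them is not reported here. Alternatives were pseudocounts of 0.1 and 5, no filter or 5 FPKM, 3 scalings, other limma settings, a replicate block and left-out libraries.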

Additional observations from a re-analysis of the deposited data

Results flagged for a closer look

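Itga7 stood at 4.37 FPKM in experimental library 3 of passage 1, far from the other 3 experimental libraries for the width of the group. Chance alone gives such a value in about 1 of 20 independent groups of values. The 12 groups of values examined came from different genes in shared libraries, so they were not independent. The change between experimental and control cells differed between the passages, by the contrast over 13 libraries, for Itga7 (passage 6 minus passage 1, -0.55 on the log2 scale), for Itgav (-0.40) and for Itga2 (-0.79).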

How the results depend on the processing

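Of 769 combinations of integrin gene, comparison and alternative setting, 711 kept direction and call, which includes changes that stayed not called. Of the rest, 33 lost a call, 11 gained one and 14 reversed sign, all of the last for changes that were not called. Itga3 and Itga5 kept their calls at both passages under every setting tried. Leaving out single libraries moved the genes called at passage 1 between 2053 and 4069 (3792 with all), those at passage 6 between 670.0 and 4257 (2462 with all) and those for the difference between 1160.0 and 2547 (1918 with all); leaving out any control lowered its passage's count and the difference count by over 1.5 times, and at passage 6 leaving out experimental library 3 gave 1582 genes and experimental library 1 the highest count. Members called ranged from 4 to 7 at passage 1 (5 with all), from 4 to 6 at passage 6 (5 with all) and from 1 to 2 for the difference (2 with all). With the 5 cartilage-bearing libraries at passage 1, genes called were 976 and members 3 (Itga3, Itga5 and Itgav), with 838 genes and 1 member for the difference. With no filter 1286 genes were called at passage 6, and 1185 genes and 1 member for the difference. A pseudocount of 0.1 gave 1 member for the difference, as did leaving out experimental libraries 2 and 3 of passage 6, where 1 experimental library remains and is assumed to vary like the other groups, and array weights gave 3192 genes there.

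Whether same-numbered libraries were paired could not be decided. Their deviations from the group mean correlated by 0.17, -0.19 and 0.24 at passage 1 and -0.07, -0.06 and 0.03 at passage 6. Libraries of unlike number correlated by -0.35 to 0.26 at passage 1, and deviations from the mean of so few libraries depend on one another. The replicate block gave 1813 called genes and 4 members at passage 1, 1438 genes and 4 members at passage 6, and 728 genes and 0 members for the difference; Itgb1 was lost at both passages and Itgav (adjusted p = 0.0523) and Itga7 (adjusted p = 0.0536) for the difference.

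Reversed signs came with left-out single libraries for Itga6 at passage 1 (-2.6e-05 to 0.14), Itgb4 at passage 1 (-0.12 to 0.0045), Itgav (-0.0397 to 0.0601), Itgb3 (-0.0904 to 0.0202) and Itga2 (-0.11 to 0.0083) at passage 6, and Itga6 for the difference (-0.0097 to 0.13). Others were Itgb4 at passage 1 with the cartilage-bearing libraries (0.038) or quantile scaling (0.0044), and at passage 6 Itgav with array weights (-0.0035), Itgb3 with experimental library 1 alone in its group (0.0501) and Itga2 with quantile scaling (0.0053). The cause was not tested. Depth is unknown, and genes near 1 FPKM are the least certain.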
